A study of Mus musculus with 30 samples.

Results

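The genes described here are 10 genes whose transcripts mark endothelial cells, the cells that line blood vessels. They are Pecam1, Cdh5, Kdr, Flt1, Tek, Tie1, Plvap, Esam, Eng and Vwf, taken by symbol from the 54232 gene IDs of each library. All 10 were found and all 10 passed the filter on low counts in every comparison. They were followed through 30 RNA-seq libraries of islets, the clusters of hormone-secreting cells in the pancreas, from male wild-type mice of strain C57BL/6N. Fresh islets came from mice given 1 mM cadmium chloride for 6 weeks (4 libraries), vehicle for 6 weeks (5 libraries), 1 mM cadmium chloride for 18 weeks (5 libraries) or vehicle for 18 weeks (6 libraries). Isolated islets were also exposed for 96 hours in culture to 0.5 uM cadmium chloride (5 libraries) or to vehicle (5 libraries). The sources used here do not give the ages of the mice, the route of dosing or the culture medium. The labels do not say that libraries of a group came from separate animals or cultures, so the p-values speak only of how far these libraries spread, and that spread may be technical.

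An islet in the body is threaded by a dense bed of fenestrated capillaries. Beta cells, which make insulin, secrete VEGF-A, and the capillaries carry its receptors and lay down the basement membrane on which the beta cells sit. Islets taken out of the body lose their blood flow, and their endothelial cells are known to dwindle in culture. Among the 10 genes, Kdr and Flt1 encode the receptors VEGFR2 and VEGFR1 for VEGF-A, Tek encodes the angiopoietin receptor TIE2 and Tie1 its partner receptor. Pecam1, Cdh5 (VE-cadherin) and Esam encode adhesion molecules of the junctions between endothelial cells. Plvap encodes the protein of the diaphragms that span fenestrae, Eng encodes endoglin, a co-receptor for ligands of the TGF-beta and BMP family, and Vwf encodes von Willebrand factor, which endothelial cells store and release and which binds platelets.

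The deposited values are read counts per gene. Total counts per library ranged from 9092759 to 58366797, and the lowest 2, at 9092759 and 14751249, were vehicle libraries 6 and 4 of 18 weeks. The 10 culture libraries held 24197072 to 26549350 counts. Levels are given as CPM, counts divided by a library size scaled with TMM (trimmed mean of M values, under which most genes are taken not to differ) and brought to a common size of 1e+06 counts. The lowest count of any of the 10 genes in any library was 10, for Vwf. The islet label was borne out by the 8 beta cell genes, which summed to between 108319 and 264652 CPM in all 30 libraries. In bulk islets fewer endothelial cells and less RNA per endothelial cell cannot be told apart.

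Summed over the 10 genes, cultured islets held 59.6 to 104 CPM in cadmium libraries and 53.5 to 92.3 CPM in vehicle libraries. Fresh islets of 18 weeks held 467 to 515 CPM with cadmium and 405 to 511 CPM with vehicle. Fresh islets of 6 weeks held 683 to 773 CPM with cadmium and 642 to 807 CPM with vehicle. The sums of the culture groups thus lay below those of every fresh library, while cadmium and vehicle sums overlapped in each of the 3 settings.

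**Figure D1:**
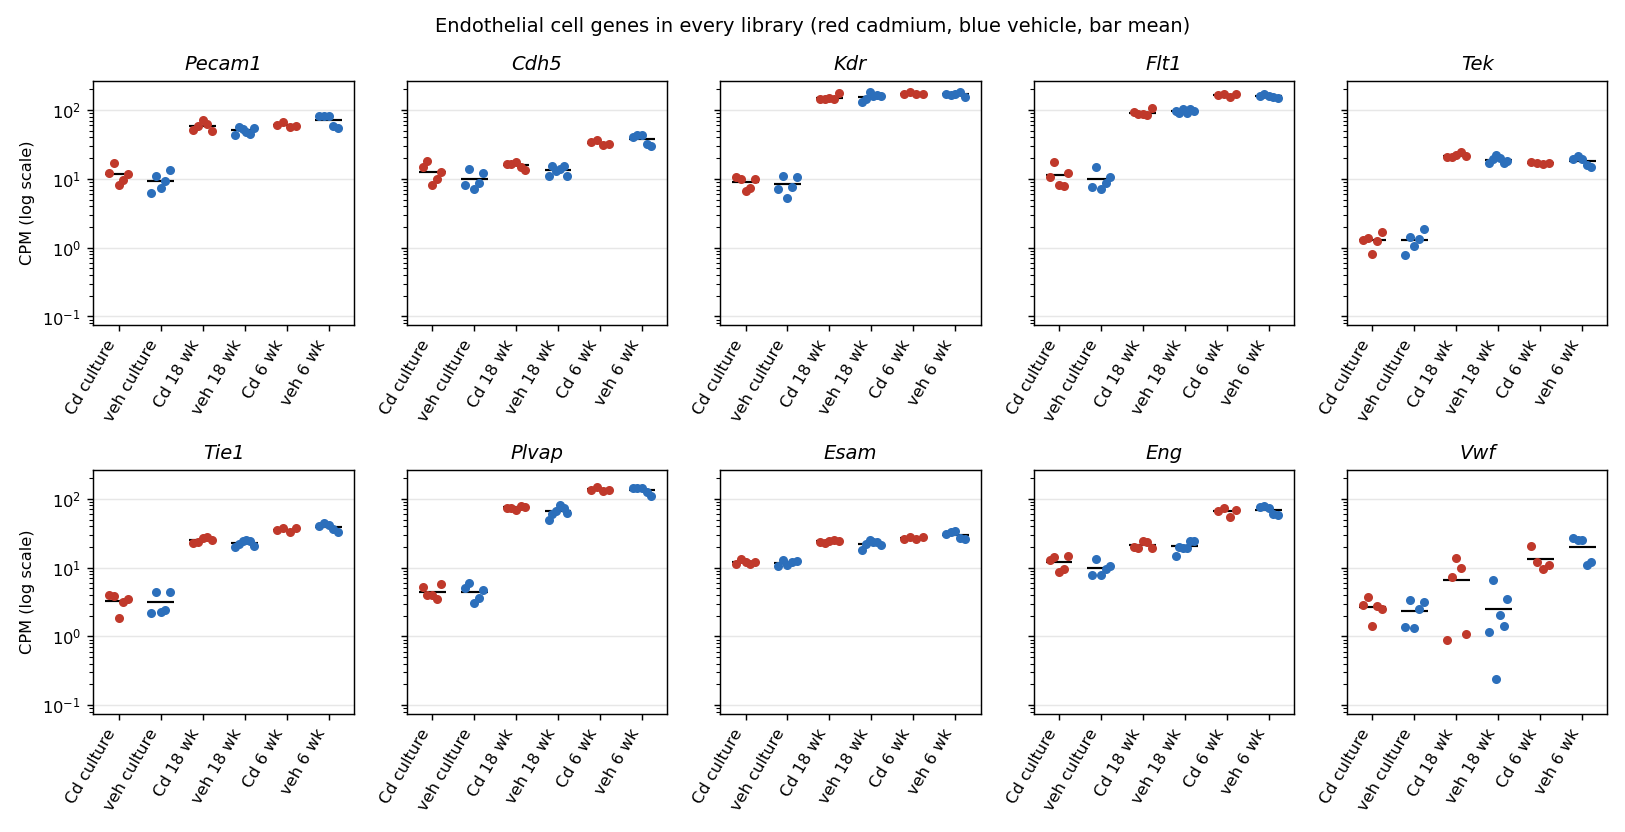
Level of each endothelial cell gene in every library, in CPM on a log scale; each point is a library, the bar is the group mean, red is cadmium and blue is vehicle. All 10 genes were lower in vehicle culture than in vehicle islets of 6 weeks, and the cadmium and vehicle points of a setting overlap for every gene.

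Levels of different genes can be compared only per length, so CPM were divided by the kilobases of exon of each gene. In fresh islets Plvap, the fenestral diaphragm gene, stood highest, at 33.0 ± 5.55 CPM per kb in vehicle islets of 18 weeks (SD, n = 6) and 67.0 ± 7.82 CPM per kb in those of 6 weeks (SD, n = 5). Kdr came next, at 17.4 ± 1.84 CPM per kb at 18 weeks and 18.8 ± 1.03 CPM per kb at 6 weeks. At 6 weeks Eng followed at 17.0 ± 2.36 CPM per kb, within its spread of Kdr. Flt1 at 11.9 ± 0.658, Pecam1 at 11.4 ± 2.18 and Esam at 10.5 ± 1.29 CPM per kb did not differ beyond their spread. Vwf was the lowest of the 10 in all 6 groups, at 1.25 ± 0.491 CPM per kb in vehicle islets of 6 weeks. The order was different in culture. There Esam stood highest, at 4.07 ± 0.353 CPM per kb in vehicle libraries (SD, n = 5), followed by Eng, Cdh5 and Plvap at 2.42 ± 0.571, 2.39 ± 0.688 and 2.26 ± 0.580 CPM per kb, which lay within each other's spread. Kdr had moved to the sixth place, at 0.927 ± 0.268 CPM per kb, and Tek and Vwf stood last at 0.277 ± 0.0880 and 0.147 ± 0.0610 CPM per kb. The cadmium groups had the same gene at the top as their vehicle groups, which was Esam at 4.19 ± 0.305 CPM per kb in culture (n = 5), and Plvap at 37.7 ± 1.90 CPM per kb at 18 weeks (n = 5) and 68.8 ± 3.33 CPM per kb at 6 weeks (n = 4).

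Promoter sequences were at hand for 5 of the 10 genes (Kdr, Flt1, Tek, Tie1 and Eng), from RefSeq on build GRCm38.p6, each running from 250 bases before the transcription start to 50 bases after it. ETS transcription factors, a family with members that are active in endothelial cells, bind sites with the core GGAA (TTCC on the other strand). The promoters of Kdr and Tek, the receptor genes whose level at 18 weeks did not pass the test against 6 weeks, and of Eng, the gene of these 5 with the lowest level kept between those times, are shown 5′ to 3′ on the strand of the gene. Capitals mark each GGAA and TTCC.
Kdr, chr5:75978406-75978705, minus strand: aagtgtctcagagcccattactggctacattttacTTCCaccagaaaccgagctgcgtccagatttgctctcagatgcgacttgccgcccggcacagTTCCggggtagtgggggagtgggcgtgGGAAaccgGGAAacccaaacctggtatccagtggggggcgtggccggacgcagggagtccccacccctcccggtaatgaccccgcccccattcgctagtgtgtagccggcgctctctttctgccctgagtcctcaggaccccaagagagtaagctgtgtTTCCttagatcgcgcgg
Tek, chr4:94739039-94739338, plus strand: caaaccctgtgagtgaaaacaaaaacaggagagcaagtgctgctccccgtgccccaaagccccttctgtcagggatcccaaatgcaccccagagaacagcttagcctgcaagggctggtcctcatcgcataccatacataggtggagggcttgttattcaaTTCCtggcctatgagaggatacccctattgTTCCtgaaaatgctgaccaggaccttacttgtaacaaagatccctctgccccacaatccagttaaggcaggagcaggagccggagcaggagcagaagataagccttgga
Eng, chr2:32646345-32646644, plus strand: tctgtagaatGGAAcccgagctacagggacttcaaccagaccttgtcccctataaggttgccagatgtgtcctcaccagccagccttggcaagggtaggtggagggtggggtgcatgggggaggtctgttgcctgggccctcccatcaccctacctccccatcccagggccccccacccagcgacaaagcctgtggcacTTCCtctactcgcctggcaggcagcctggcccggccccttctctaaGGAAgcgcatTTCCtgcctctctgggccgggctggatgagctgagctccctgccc
The core occurred 5 times in Kdr, 2 times in Tek and 4 times in Eng, and 4 times in Flt1 and 9 times in Tie1, whose promoters are not shown. Of the 32851 promoters of the same length in the table, 96.0% held at least 1 core, with a median of 3. At least as many cores as in Tie1 were found in 1.59% of them, and at least as many as in Kdr in 28.6%. At least as many as in Eng or Flt1 were found in 46.3%, and at least as many as in Tek in 84.6%. The number of cores did not follow the order of the levels per kb, with Tie1 below Kdr, Eng and Flt1 in vehicle islets of 6 weeks.

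Vehicle islets kept 96 hours in culture were set against fresh vehicle islets to describe how much of each gene's level was kept. All 10 genes fell against fresh islets of 6 weeks, to between 3.44% and 39.5% of the fresh level, and 9 of 10 fell against fresh islets of 18 weeks, to between 5.21% and 73.0%, by the quasi-likelihood test of edgeR with Benjamini-Hochberg adjustment over all genes tested (adjusted p under 0.05). Over all genes, 34.8% of those tested fell against 6 weeks and 36.6% fell against 18 weeks, while 5812 of 17605 and 5643 of 18449 rose. The median log2 fold change of the 10 genes was −3.33 and −2.66, while that of all genes tested was −0.0043 and −0.055. These libraries also differ from the fresh ones in depth, in where the exposure took place and possibly in the mice and the sequencing, and these differences cannot be told apart from culture itself. Both comparisons use the same 5 culture libraries.

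The VEGF receptors were among the genes with the least kept. Kdr had 7.22, 11.03, 5.30, 7.68 and 10.6 CPM in the 5 vehicle cultures, against 173, 165, 173, 182 and 157 CPM in the 5 vehicle libraries of 6 weeks and 133 to 182 CPM (median 159) in the 6 of 18 weeks. Every culture library was thus far below every fresh library. Its log2 fold change was −4.32 ± 0.14 against 6 weeks (SE, edgeR adjusted p = 1.77e-11), which is 5.02% kept with a 95% interval of 4.06% to 6.21%, and −4.26 ± 0.17 against 18 weeks (adjusted p = 3.42e-11), which is 5.21% kept. Flt1 had 7.54, 14.9, 7.23, 8.74 and 10.7 CPM in vehicle culture, against 161, 172, 163, 156 and 148 CPM in vehicle islets of 6 weeks and 89.8 to 105 CPM in those of 18 weeks. The groups did not overlap, with 6.25% kept against 6 weeks (log2 fold change −4.00 ± 0.15, edgeR adjusted p = 6.91e-11) and 9.86% against 18 weeks (−3.34 ± 0.16, adjusted p = 1.98e-10).

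The TIE receptors fell likewise. Tek had 0.790 to 1.89 CPM in the 5 vehicle cultures, against 15.1 to 21.4 CPM in the 5 vehicle libraries of 6 weeks and 17.3 to 22.4 CPM in the 6 of 18 weeks, with 7.27% and 6.68% kept (log2 fold change −3.78 ± 0.17 and −3.90 ± 0.16). Tie1 had 2.19 to 4.45 CPM in vehicle culture, against 32.8 to 44.3 CPM at 6 weeks and 20.2 to 25.2 CPM at 18 weeks, with 8.22% and 13.6% kept (−3.61 ± 0.18 and −2.88 ± 0.18). Neither gene's culture libraries overlapped with the fresh ones, and all 4 edgeR adjusted p-values were 3.49e-09 or lower. Each of the 4 receptor genes thus kept 13.6% of its fresh level or less in both comparisons.

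Plvap kept the smallest share of the 10 against 6 weeks. It had 4.99, 6.02, 3.10, 3.64 and 4.70 CPM in vehicle culture, against 142, 143, 146, 126 and 109 CPM in vehicle islets of 6 weeks, and its log2 fold change was −4.86 ± 0.14 (edgeR adjusted p = 3.7e-12), with 3.44% kept and a 95% interval of 2.80% to 4.23%. Against the 6 vehicle libraries of 18 weeks, which held 49.9 to 82.1 CPM, 6.71% was kept (−3.90 ± 0.17, adjusted p = 7.14e-11). Plvap was the most abundant of the 10 per kb in fresh islets, and its highest culture value stood under its lowest fresh value in both comparisons.

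The junction genes kept more, and unequally so. Esam had 10.5, 12.8, 10.8, 11.9 and 12.4 CPM in vehicle culture, against 31.0, 32.5, 34.5, 26.7 and 26.0 CPM in vehicle islets of 6 weeks and 18.1 to 25.3 CPM in those of 18 weeks. Its groups did not overlap, and 39.5% was kept against 6 weeks (95% interval 34.6% to 45.0%, log2 fold change −1.34 ± 0.09, edgeR adjusted p = 2.73e-08) and 51.2% against 18 weeks (−0.97 ± 0.09, adjusted p = 2.31e-07). Cdh5 had 8.08, 13.9, 7.13, 8.85 and 12.2 CPM in vehicle culture, against 40.6, 43.4, 43.7, 32.1 and 30.04 CPM at 6 weeks and 10.9 to 15.6 CPM (median 13.6) at 18 weeks. Against 6 weeks 27.0% was kept without overlap (95% interval 20.9% to 34.9%, −1.89 ± 0.17, adjusted p = 6.16e-07). Against 18 weeks 73.0% was kept with overlapping groups (95% interval 57.3% to 92.9%, −0.45 ± 0.16, edgeR adjusted p = 0.0229), a call that was lost without vehicle culture library 1, 3 or 4 (largest adjusted p = 0.0702) and without the vehicle libraries of low depth at 18 weeks (adjusted p = 0.0516). Pecam1 had 6.25 to 13.4 CPM in vehicle culture, against 54.9 to 81.4 CPM at 6 weeks and 43.8 to 57.0 CPM at 18 weeks, and kept 13.5% and 18.4% (−2.88 ± 0.18 and −2.45 ± 0.16, edgeR adjusted p = 2.04e-08 and 4.66e-09), so that this junction gene kept a smaller share than Esam and Cdh5, with 95% intervals that did not overlap theirs.

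Eng and Vwf depended most on which fresh islets were used. Eng had 7.81 to 13.4 CPM in vehicle culture, against 57.3 to 77.6 CPM in vehicle islets of 6 weeks and 14.8 to 24.3 CPM in those of 18 weeks. It kept 14.5% against 6 weeks (log2 fold change −2.78 ± 0.14, edgeR adjusted p = 1.66e-09) and 47.6% against 18 weeks (−1.07 ± 0.15, adjusted p = 1.81e-05), with no overlap in either case. Vwf had 1.36, 3.42, 1.34, 2.46 and 3.19 CPM in vehicle culture, against 26.8, 25.4, 25.2, 10.7 and 12.2 CPM at 6 weeks, where 11.98% was kept (−3.06 ± 0.33, adjusted p = 3.29e-06). The vehicle libraries of 18 weeks held 1.14, 6.61, 0.241, 2.03, 1.39 and 3.54 CPM, a range that took in all 5 cultures, and Vwf did not pass the test there (−0.09 ± 0.56, edgeR adjusted p = 0.891). Its 95% interval, from 41.1% to 214% kept, was the widest of the 10. Megakaryocytes and platelets make von Willebrand factor too, and the 7 platelet genes summed to 3.56 to 4.42 CPM in vehicle culture, against 9.07 to 16.3 CPM at 6 weeks and 3.80 to 9.24 CPM at 18 weeks. Their part in the level of Vwf was not tested.

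**Figure D2:**
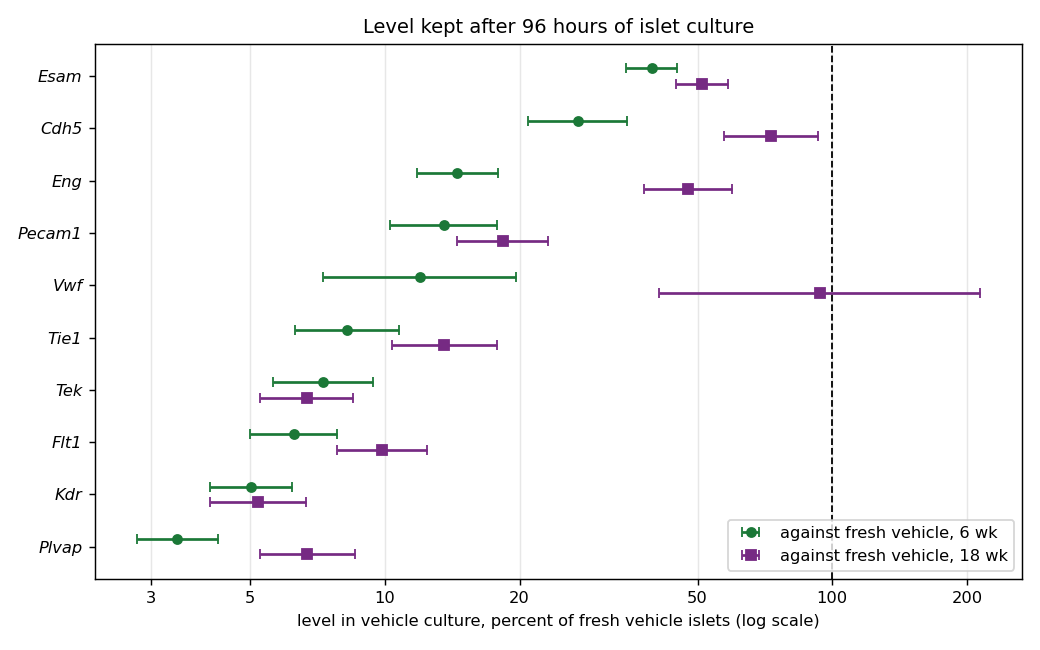
Level of each gene in vehicle culture as a percent of fresh vehicle islets of 6 weeks (circles) or 18 weeks (squares), on a log scale with 95% intervals from the edgeR fit; the dashed line is 100%. Plvap, Kdr, Flt1 and Tek lie under 10% in both comparisons, Esam stays at 39.5% and 51.2%, and Vwf, Cdh5 and Eng move most between them.

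The other genes of the vessel wall were followed as lists. Of 35 other endothelial identity genes, 34 were measured against 6 weeks and all 34 fell (median log2 fold change −2.44), and 31 of the 33 measured against 18 weeks fell (median −2.02). Clec14a, an endothelial surface lectin, averaged 0.489 CPM in vehicle culture, against 19.7 CPM in vehicle islets of 6 weeks and 23.6 CPM in those of 18 weeks (log2 fold change −5.30 ± 0.15 and −5.62 ± 0.18, edgeR adjusted p = 3.81e-12 and 4.59e-12). Podxl, which encodes podocalyxin of the luminal surface, averaged 4.37 CPM in culture, against 109 CPM at 6 weeks (−4.61 ± 0.13) and 64.7 CPM at 18 weeks (−3.92 ± 0.16). Adgrf5, an adhesion receptor, kept more, at 20.7 CPM in culture against 95.5 and 55.8 CPM (−2.18 ± 0.09 and −1.46 ± 0.08). Of the 7 co-receptors and partners, 6 fell against 6 weeks and 5 fell against 18 weeks, where Nrp2 rose (0.38 ± 0.11). Ptprb, the phosphatase VE-PTP that acts on TIE2, fell to 4.996 CPM in culture, against 97.8 CPM at 6 weeks and 70.1 CPM at 18 weeks. Nrp1, a VEGF co-receptor, fell to 13.9 CPM, against 80.4 and 81.0 CPM. Of the endothelial activation genes, 4 of 6 measured fell against 6 weeks (median log2 fold change −0.81). Against 18 weeks 4 were measured (median 0.39). Edn1, the precursor of endothelin, rose from 0.105 CPM at 18 weeks to 0.987 CPM in culture (2.75 ± 0.43, edgeR adjusted p = 4.42e-05). Vcam1, an adhesion molecule for leukocytes, rose from 1.86 to 3.27 CPM (0.80 ± 0.30, edgeR adjusted p = 0.0294), and Angpt2 fell. In vehicle islets of 6 weeks Edn1 averaged 0.775 CPM, and no gene of this list rose in culture against them.

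The ligands moved in both directions. Vegfa, the ligand of Kdr and Flt1, averaged 630 ± 22.9 CPM in vehicle culture (SD, n = 5), against 517 ± 24.8 CPM in vehicle islets of 6 weeks (n = 5) and 389 ± 42.2 CPM in those of 18 weeks (n = 6). It rose in both comparisons (log2 fold change 0.31 ± 0.04, edgeR adjusted p = 2.92e-05, and 0.66 ± 0.07, adjusted p = 1.35e-06). Angpt1, the activating ligand of TIE2 that mural cells make, fell to 0.396 ± 0.136 CPM, against 1.53 ± 0.229 CPM at 6 weeks and 0.863 ± 0.331 CPM at 18 weeks (−1.91 ± 0.23, adjusted p = 7.6e-06, and −1.13 ± 0.32, adjusted p = 0.0053). Angpt2, the context-dependent ligand that endothelial cells release, fell to 8.71 ± 0.299 CPM, against 10.1 ± 0.778 and 13.9 ± 1.502 CPM (−0.18 ± 0.07, adjusted p = 0.0329, and −0.70 ± 0.09, adjusted p = 3.69e-06). Of all 10 ligand genes measured against 6 weeks, 1 rose and 6 fell, and of the 9 measured against 18 weeks, 3 rose and 2 fell. Over all genes tested, 5812 of 17605 rose and 6121 fell against 6 weeks, and 5643 of 18449 rose and 6748 fell against 18 weeks. Most genes thus differed, while TMM scaling takes most not to differ. Small shifts in culture, such as −0.18 for Angpt2, depend on that scaling.

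The neighbours of the endothelium changed in both directions in culture. Of 10 vascular basement membrane genes, 8 fell and Sparc rose against 6 weeks, and 4 fell and 5 rose against 18 weeks. Of 12 pericyte and smooth muscle genes, 8 fell and 3 rose against 6 weeks, with Rgs5, a pericyte marker, at 51.2 CPM in vehicle culture against 173 CPM (log2 fold change −1.73 ± 0.10) and Pdgfrb, the receptor of pericytes for PDGF-B, at 34.7 CPM against 25.9 CPM (0.45 ± 0.14). Of 6 fibroblast genes, 4 rose against 6 weeks, with Col1a1, a fibrillar collagen, at 118 CPM in culture against 23.7 CPM (2.35 ± 0.33). The summed CPM of the fibroblast list were 228 to 615 in vehicle culture, against 89.6 to 223 at 6 weeks and 16.9 to 67.8 at 18 weeks. The macrophage list summed to 427 to 490 CPM in vehicle culture, against 187 to 458 CPM at 6 weeks and 102 to 136 CPM at 18 weeks. The sum hides opposite moves, since 2 of its 10 genes rose and 5 fell against 6 weeks (median log2 fold change −0.53). Against 18 weeks 7 rose and 1 fell (median 0.62). The acinar list, of the exocrine cells around the islets, summed to 76.2 to 136 CPM in vehicle culture, against 29320 to 54850 CPM at 6 weeks and 2753 to 17407 CPM at 18 weeks. The part of these shifts in the result for the 10 genes was not tested.

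**Figure D3:**
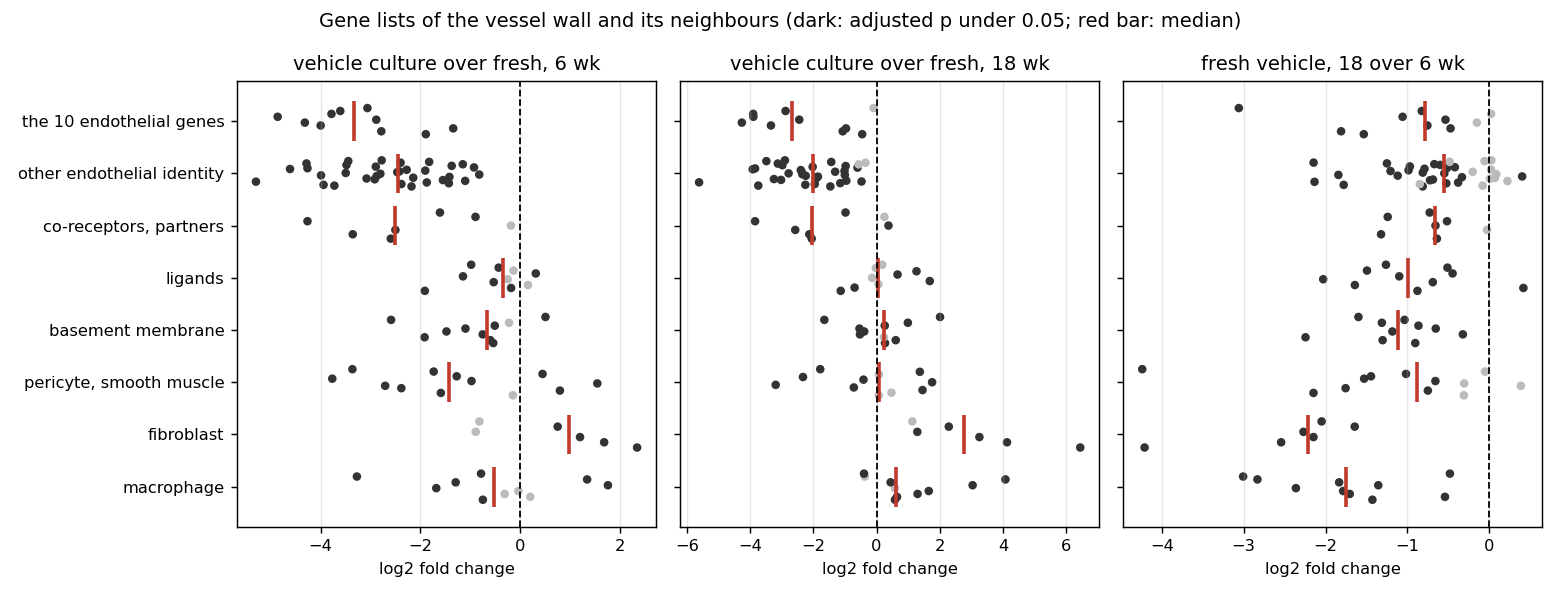
Log2 fold change of every measured gene of 8 lists in vehicle culture over fresh vehicle islets of 6 weeks (left) and 18 weeks (middle), and in fresh vehicle islets of 18 over 6 weeks (right); dark points passed edgeR adjusted p under 0.05 and red bars are medians. The 10 genes and the other endothelial identity genes have medians of −3.33 and −2.44 in the left panel, while fibroblast genes have a positive median there and a negative one at 18 over 6 weeks.

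Vehicle islets of 18 weeks were set against those of 6 weeks to see how the fresh levels differed with time. Of the 10 genes 8 fell, while 35.9% of all genes tested fell, and the median log2 fold change was −0.79 for the 10 genes and 0.0003 for all genes. Eng fell to 14.8, 19.8, 19.1, 19.3, 24.3 and 24.3 CPM at 18 weeks, against 76.1, 77.6, 73.2, 59.7 and 57.3 CPM at 6 weeks, 28.5% of the 6 week level (log2 fold change −1.81 ± 0.13, edgeR adjusted p = 9.51e-09). Cdh5 fell to 34.6% (−1.53 ± 0.12, adjusted p = 5.11e-08), with 10.9 to 15.6 CPM at 18 weeks against 30.04 to 43.7 CPM at 6 weeks. Neither gene's groups overlapped. Plvap fell to 48.0%, Tie1 to 56.5% and Flt1 to 59.3%, each with all 6 libraries of 18 weeks below all 5 of 6 weeks, and Esam fell to 72.1% in the same way. Pecam1 fell to 69.1% (−0.53 ± 0.12, adjusted p = 0.000865) with 4 of 6 libraries below all of 6 weeks.

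Vwf changed most of the 10 (−3.06 ± 0.53 in log2 units, edgeR adjusted p = 0.000106), to 11.99% of the level at 6 weeks with a 95% interval of 5.46% to 26.3%. Without vehicle library 2 of 18 weeks, the highest of its group at 6.61 CPM, the log2 fold change was −3.94. Kdr and Tek did not pass the test. Kdr averaged 157 CPM at 18 weeks and 170 CPM at 6 weeks (−0.15 ± 0.08, edgeR adjusted p = 0.0982), and Tek averaged 19.1 and 18.3 CPM (0.02 ± 0.10, adjusted p = 0.839). As a share of the level at 6 weeks, the 95% interval was 80.3% to 101% for Kdr and 87.4% to 118% for Tek. These are the main signalling receptors for VEGF-A and for the angiopoietins. Age of the mice, length of dosing, depth and any difference in handling cannot be told apart between these groups, whose libraries are also the fresh ones of the culture comparisons.

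Other lists fell as well between the 2 times. Of 35 other endothelial identity genes 23 fell and 1 rose (median −0.55), with Sox7, a transcription factor of endothelial cells, at 0.636 CPM at 18 weeks against 2.95 CPM at 6 weeks (log2 fold change −2.15 ± 0.21, edgeR adjusted p = 3.44e-07) and Sox18, its relative, at 4.50 against 10.6 CPM (−1.25 ± 0.13, adjusted p = 8.02e-07). Clec14a and Tmem204 did not pass (0.22 ± 0.10 and −0.06 ± 0.09). Of 6 endothelial activation genes measured, 5 fell and Angpt2 rose. Selp, the P-selectin that is stored with von Willebrand factor, fell to 0.158 CPM at 18 weeks against 2.68 CPM at 6 weeks (−4.05 ± 0.61, adjusted p = 2.76e-05), and Ackr1, a chemokine receptor of venules that red blood cells also carry, fell to 0.109 against 1.15 CPM (−3.47 ± 0.50, adjusted p = 1.94e-05). Platelets carry P-selectin too, and 6 of the 7 platelet genes fell (median −1.95), with Pf4, a platelet chemokine, at 0.175 CPM at 18 weeks against 3.38 CPM at 6 weeks (−4.01 ± 0.47). All 10 basement membrane genes, all 10 macrophage genes and all 6 fibroblast genes fell, as did 8 of 12 pericyte and smooth muscle genes, whose marker Rgs5 stood at 172 CPM at 18 weeks and 173 CPM at 6 weeks. Vegfa averaged 389 CPM at 18 weeks and 517 CPM at 6 weeks (−0.45 ± 0.08, adjusted p = 0.000155). The part of the platelet, macrophage, fibroblast and acinar shifts in the falls of the 10 genes was not tested.

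The effect of cadmium was tested within each setting, which is the question of the series. None of the 10 genes passed the test at 6 weeks, at 18 weeks or in culture with edgeR, and none did with DESeq2. At an unadjusted p under 0.05 edgeR and DESeq2 each gave 0, 1 (Tek) and 0 of the 10 in the same settings, while with the replicate block 5 (Cdh5, Esam, Pecam1, Tie1 and Vwf), 2 (Pecam1 and Tek) and 4 (Cdh5, Eng, Flt1 and Pecam1) had such a p and none passed after adjustment (smallest adjusted p = 0.0965). Such a p was found in edgeR for 923 of 18080, 3804 of 20911 and 920 of 16743 genes in all. With the replicate block it was found for 1147 of 17946, 3873 of 20689 and 1692 of 16743. Over all genes edgeR called 0% at 6 weeks (0 of 18080, with 923 at an unadjusted p under 0.05 and 10 called by DESeq2), 0.359% at 18 weeks (75 of 20911) and 0.00597% in culture (1 of 16743). At 18 weeks DESeq2 called 532 higher and 219 lower, and the edgeR fit of all 30 libraries called 1601 higher and 895 lower. The 3 comparisons share no libraries.

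At 6 weeks 7 of the 10 genes had a lower mean with cadmium, and the median log2 fold change was −0.12, against −0.0019 over all genes. Kdr had 171, 183, 171 and 173 CPM in cadmium libraries, against 173, 165, 173, 182 and 157 CPM in vehicle libraries, and its log2 fold change of 0.03 ± 0.05 had a 95% interval of −0.07 to 0.13. The interval of Flt1 was −0.06 to 0.15 (0.05 ± 0.05), and that of Plvap was wider, at −0.14 to 0.21 (0.03 ± 0.08). Vwf had 20.6, 12.1, 9.42 and 10.8 CPM with cadmium, against 26.8, 25.4, 25.2, 10.7 and 12.2 CPM with vehicle (−0.61 ± 0.32, edgeR adjusted p = 0.919). The vehicle libraries of 6 weeks fell apart for this gene, with libraries 1 to 3 above every cadmium library and libraries 4 and 5 among them. Pecam1 had libraries 1 to 3 above every cadmium library as well, and library 5 below all of them, with 81.0, 81.4, 81.2, 58.0 and 54.9 CPM in vehicle libraries beside 61.1, 66.8, 57.3 and 59.1 CPM in cadmium libraries (−0.23 ± 0.12, adjusted p = 0.919). Vehicle libraries 1 to 3 were also above every cadmium library for Cdh5, Tek, Tie1 and Esam. In vehicle libraries 1 to 5 the fibroblast list summed to 223, 216, 202, 89.6 and 100 CPM and the macrophage list to 431, 458, 384, 187 and 248 CPM, so that the same 3 libraries were high. In the cadmium libraries those sums were 116 to 201 and 142 to 349 CPM. Their part in the differences of the 10 genes was not tested.

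At 18 weeks 8 of the 10 genes had a higher mean with cadmium, with a median log2 fold change of 0.18, against 0.0003 over all genes. Tek had 20.9, 20.6, 22.1, 24.4 and 21.3 CPM in cadmium libraries, against 17.3 to 22.4 CPM (median 18.9) in the 6 vehicle libraries, and the smallest adjusted p of the 10 (0.20 ± 0.08, edgeR adjusted p = 0.242). Pecam1 had 50.9, 59.2, 71.3, 62.2 and 49.4 CPM with cadmium, against 43.8 to 57.0 CPM with vehicle (0.22 ± 0.10, adjusted p = 0.284), with 3 of 5 above all vehicle libraries. Kdr and Flt1 were the 2 genes with lower means (−0.05 ± 0.09 and −0.08 ± 0.08). Vwf had 0.900, 7.25, 13.8, 9.74 and 1.08 CPM with cadmium, against 1.14, 6.61, 0.241, 2.03, 1.39 and 3.54 CPM with vehicle, which gave 1.43 ± 0.74 (adjusted p = 0.318) with a 95% interval that ran from −0.16 to 3.01. With 1 library left out in turn it ran from 0.97 to 2.20, the highest without vehicle library 2, and passed in no case. In the edgeR fit of all 30 libraries, Vwf alone of the 10 had an unadjusted p under 0.05 (adjusted p = 0.0874), as did 6438 of 22721 genes in all. For Vwf, cadmium libraries 2 to 4 lay above all 6 vehicle libraries and cadmium libraries 1 and 5 among the lowest of them. The fibroblast list summed to 34.5, 73.2, 94.3, 161 and 39.1 CPM in cadmium libraries 1 to 5, and to 33.8, 67.8, 16.9, 20.2, 18.2 and 30.8 CPM in vehicle libraries 1 to 6. Cadmium libraries 2 to 4 and vehicle library 2 were the highest 4 of the 11 for this list and for Vwf. The acinar list summed to 15818 to 260144 CPM with cadmium, against 2753 to 17407 CPM with vehicle, and 26 of its 34 genes rose, calls that were lost when vehicle libraries 4 and 6 and cadmium library 5, of low depth, were left out (0 of 20909 genes called in edgeR, with 4971 at an unadjusted p under 0.05). The part of these cell types in the values of the 10 genes was not tested.

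In culture 8 of the 10 genes had a higher mean with cadmium, all but Tek and Plvap, with a median log2 fold change of 0.14, against −0.0021 over all genes. Cdh5 had 14.7, 18.1, 8.15, 10.1 and 12.7 CPM in cadmium cultures, against 8.08, 13.9, 7.13, 8.85 and 12.2 CPM in vehicle cultures (0.35 ± 0.20, edgeR adjusted p = 0.899). Eng had 12.9, 14.2, 8.68, 9.52 and 14.7 CPM with cadmium, against 7.87, 13.4, 7.81, 9.40 and 10.5 CPM with vehicle (0.30 ± 0.16, adjusted p = 0.888). Both genes' groups overlapped in most of their range, though each cadmium culture stood above the vehicle culture of the same number. Whether those numbers pair the cultures is not known. Esam was the most tightly bounded (0.05 ± 0.07, 95% interval −0.11 to 0.20), and the intervals of the other 9 reached from −0.51 to 0.78, so that Cdh5 at 172% of its vehicle level was still within its interval. Vwf had 2.83, 3.77, 1.41, 2.72 and 2.49 CPM with cadmium, against 1.36, 3.42, 1.34, 2.46 and 3.19 CPM with vehicle (0.17 ± 0.28).

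**Figure D4:**
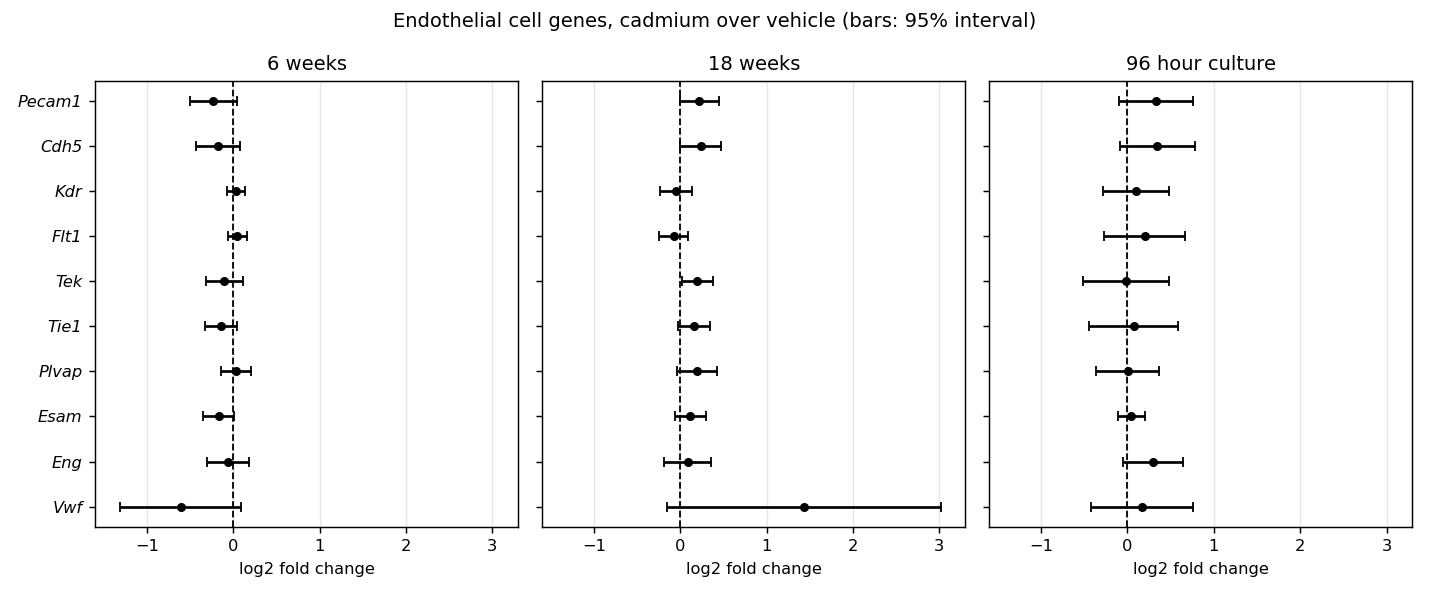
Log2 fold change of cadmium over vehicle for each endothelial cell gene at 6 weeks, 18 weeks and in 96 hour culture, with 95% intervals from the edgeR fits. Every interval but that of Tek at 18 weeks takes in 0, and Vwf has the widest interval in every setting.

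None of the 7 other lists of the vessel wall held a gene that passed the edgeR test with cadmium. Of 85 genes measured at 6 weeks, 80 at 18 weeks and 73 in culture, 14, 20 and 11 had an unadjusted p under 0.05, and DESeq2 called 0, 8 and 0. Over all genes edgeR gave such a p to 923 of 18080, 3804 of 20911 and 920 of 16743. Of the other endothelial identity genes, 33 of 35 had lower means at 6 weeks, 29 of 35 had higher means at 18 weeks and 28 of 30 had higher means in culture. Their medians were −0.13, 0.16 and 0.17, against −0.0019, 0.0003 and −0.0021 over all genes. At 6 weeks the list summed to 765, 778, 793, 659 and 623 CPM in vehicle libraries 1 to 5, and to 645 to 727 CPM with cadmium. Vehicle libraries 1 to 3 thus lay above every cadmium library, library 4 among them and library 5 below. Cadmium and vehicle sums also overlapped at 18 weeks and in culture. The genes share these libraries, so their counts are not independent observations. Angpt1 averaged 2.12 ± 1.31 CPM with cadmium at 18 weeks (SD, n = 5), against 0.863 ± 0.331 CPM with vehicle (n = 6), a log2 fold change of 1.32 ± 0.41 that missed the threshold (edgeR adjusted p = 0.151) and passed it with DESeq2 (adjusted p = 0.0398) and in the fit of all 30 libraries (adjusted p = 0.0130). Vegfa differed by −0.02, 0.06 and 0.00 on the log2 scale at 6 weeks, at 18 weeks and in culture, with edgeR adjusted p-values of 0.971, 0.746 and 0.996.

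Whether the cadmium effect differed between settings was tested as a contrast in 1 fit of all libraries, in which each setting keeps its own vehicle group. No gene of the 10 passed for 18 weeks minus 6 weeks, where 1.68% of all genes did (382 of 22721), for culture minus 6 weeks, where 0% did (0 of 22721, with 760 at an unadjusted p under 0.05 and 2 called by DESeq2), or for culture minus 18 weeks, where 0.0176% did (4 of 22721). At an unadjusted p under 0.05 edgeR and DESeq2 each gave 2 of the 10 in the first (Esam and Vwf), 2 in the second (Cdh5 and Pecam1) and 0 in the third, and DESeq2 called none. Over all 22721 genes edgeR gave such a p to 4838, 760 and 2995 in the same order. Vwf had the smallest adjusted p, with a difference of 2.04 ± 0.79 between its log2 fold changes of 1.43 at 18 weeks and −0.61 at 6 weeks (edgeR adjusted p = 0.136). Without vehicle library 2 of 18 weeks that difference was 2.93 ± 0.77 and passed (adjusted p = 0.0450).

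The 10 genes did not vary alike between libraries of a group. After each group's mean was removed from the log2 CPM, Pecam1 had a Pearson correlation of 0.87 with the mean of the other 9 over the 30 libraries, Cdh5 0.85, Eng 0.85 and Tie1 0.79. The correlation was 0.70 for Tek, 0.63 for Kdr, 0.58 for Flt1, 0.56 for Esam, 0.49 for Plvap and 0.34 for Vwf. These values describe 30 points that share their libraries and scaling. Vwf also had the widest spread within groups, with a highest library 27.5-fold above the lowest in vehicle islets of 18 weeks and 15.4-fold in cadmium islets of 18 weeks, while Kdr spanned at most 2.08-fold in any group. Outside the lists, the 8 genes most like the mean of the 10 by the same measure were Ehd2, Fbn1, Col15a1, Osmr, Lamb2, Ddr2, Irx3 and Cald1. Their correlations were 0.88, 0.88, 0.87, 0.87, 0.87, 0.86, 0.85 and 0.84 over the 30 libraries. These were the highest of the 22721 genes measured once the genes of all lists were set aside. Irx3 averaged only 0.235 CPM. Fbn1 encodes the microfibril protein fibrillin, Col15a1 and Lamb2 encode basement membrane proteins and Ddr2 a collagen receptor.

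By their position on GRCm38, the 10 genes lie on 7 chromosomes, and all are protein-coding. Kdr (chr5:75932827-75978458) and Flt1 (chr5:147561604-147726011) share chromosome 5, Tek (chr4:94739289-94874976) and Tie1 (chr4:118471191-118490061) share chromosome 4, and Cdh5 (chr8:104101625-104144511) and Plvap (chr8:71497765-71511752) share chromosome 8. Pecam1 (chr11:106654217-106750628), Esam (chr9:37528078-37538319), Eng (chr2:32646595-32682669) and Vwf (chr6:125546774-125686679) lie alone. No source used here says whether counting used strand. Of the 10, only Eng shares annotated exon bases with another gene, 61 bases (1.51% of its exon length) with Fpgs on the opposite strand.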

How the data were processed

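RNA was measured in 30 islet libraries, grouped by the treatment and duration in their labels. The authors deposited raw read counts per Ensembl gene for each library, with no normalization. Per the submitters' processing notes, cutadapt 1.13, STAR, HTSeq 0.6.1p1, DESeq2 and build mm10 were used upstream. No source used here gives the annotation release or whether strand was used. Symbols were found for 54165 of 54232 IDs (99.88%), with coordinates from GENCODE on GRCm38, and no row lacked a gene. The lowest chi-square value per degree of freedom over 61 pairs of libraries within groups was 2.77, with 0 identical pairs, so each library was kept as a sample.

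Low genes were dropped with filterByExpr (counts of at least 10, total of at least 15), libraries were TMM-scaled, and the 2 groups of a comparison were tested by quasi-likelihood in edgeR 4.0.16 (R 4.3.3). Genes with a Benjamini-Hochberg adjusted p under 0.05, over all genes tested, were called. SE is the size of the log2 fold change over the root of F, and 95% intervals use the t distribution at the fit's degrees of freedom. The code was tested on simulated counts. The cadmium effects of 2 settings were compared by a contrast in a fit of all 6 groups. Alternatives were DESeq2 1.42.0, relative log expression scaling, no filter, 1 fit of all 30 libraries, a replicate block, each library left out, acinar genes left out, and 3 shallow 18 week libraries (vehicle 4 and 6, cadmium 5) left out. The 10 genes and all lists were chosen with earlier results of these data known. Besides the 10 genes, the text names Vegfa, Angpt1 and Angpt2, up to 4 called genes of smallest p per list and comparison, and the 8 genes outside the lists most correlated with the mean of the 10.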

Additional observations from a re-analysis of the deposited data

Results flagged for a closer look

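Of 66 groups of values looked at for a library far from the others of its group, 2 held one, and chance flags about 1 in 20 groups. Kdr stood at 175 CPM in cadmium library 5 of 18 weeks, while the other 4 libraries of that group held 144 to 149 CPM. Esam stood at 13.5 CPM in cadmium culture library 2, while the other 4 held 11.3 to 11.9 CPM.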

How the results depend on the processing

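The falls of 10 genes in culture against 6 weeks and of 8 genes at 18 against 6 weeks were found again under all alternatives, apart from 9 falls in the second without a filter, where Kdr passed as well (−0.20, adjusted p = 0.0330). Against 18 weeks 9 genes fell, or 8 where Cdh5 was lost. No gene of the 10 passed with cadmium in any setting under any alternative run. The contrast of 18 weeks minus 6 weeks ranged from 0 to 1 call with each library left out. Whether the replicate numbers pair the libraries is not known. Correlations between same-numbered libraries ran from −0.02 to 0.11 at 6 weeks, −0.11 to 0.26 at 18 weeks and 0.02 to 0.14 in culture. With a replicate block the calls among the 10 stayed 0, 0 and 0 with cadmium, and 10, 9 and 8 in the others, while 3 of 5 culture pairs, 2 of 5 at 18 weeks and 1 of 4 at 6 weeks correlated best with their own number. Genes without a call changed sign near 0: Plvap with cadmium at 6 weeks (−0.029 with the replicate block), Plvap with cadmium in culture (−0.00082 in the fit of all libraries, −0.0012 without a filter), Vegfa there (−0.00079 in that fit), Vwf in culture against 18 weeks (0.39 with the replicate block) and Tek at 18 against 6 weeks (−0.029 without a filter). The cause was not tested. With each library left out, log2 fold changes with cadmium at 6 weeks ran from −0.030 to 0.067 for Plvap, −0.12 to 0.022 for Eng, −0.048 to 0.0025 for Vegfa and −0.15 to 0.26 for Angpt1, and at 18 weeks from −0.027 to 0.13 for Angpt2. In culture they ran from −0.026 to 0.22 for Kdr, −0.018 to 0.40 for Flt1, −0.15 to 0.16 for Tek, −0.034 to 0.23 for Tie1, −0.11 to 0.13 for Plvap, −0.0016 to 0.084 for Esam and −0.0088 to 0.022 for Vegfa. Vwf in culture against 18 weeks ran from −0.37 to 0.71, and Tek at 18 against 6 weeks from −0.035 to 0.096. Over all genes, counts of calls moved more than those among the 10. With cadmium at 18 weeks edgeR called 72 higher and 3 lower, and 532 and 219 were called by DESeq2, 1601 and 895 in the fit of all libraries, 134 and 6 without a filter, 1 and 0 with the replicate block, and 0 with the acinar genes or the libraries of low depth left out (3715 and 4971 genes at an unadjusted p under 0.05). In culture 1 higher and 0 lower became 211 and 12 with the replicate block, 7 and 0 without a filter and 0 in the fit of all libraries (608 at an unadjusted p under 0.05), and at 6 weeks 0 (923 at that p) became 8 and 2 with DESeq2 and 1 and 0 in the fit of all libraries. The contrast of 18 weeks minus 6 weeks gave 204 higher and 178 lower, against 655 and 714 with DESeq2, 123 and 115 without acinar genes and 119 and 73 without a filter. Culture minus 18 weeks gave 1 and 3, against 57 and 107 with DESeq2 and 0 and 1 without acinar genes, and culture minus 6 weeks gave 0 (760 at that p), against 1 and 1 with DESeq2. Vwf had 10 to 362 counts in the vehicle libraries of 18 weeks, with 29 in the shallowest.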

Other observations

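Lymphatic endothelial genes were followed as well. The genes named here were chosen after their values were seen. Of the 7 genes on the list, 5 fell and 1 rose in vehicle culture against 6 weeks (median log2 fold change −1.56), and of the 5 measured against 18 weeks 3 fell and 2 rose (median −0.61). Flt4, which encodes VEGFR3, the receptor for VEGF-C, averaged 1.70 CPM in vehicle culture, against 17.8 CPM in vehicle islets of 6 weeks and 7.20 CPM in those of 18 weeks (log2 fold change ± SE −3.36 ± 0.16 and −2.13 ± 0.19, edgeR adjusted p = 9.23e-10 and 1.62e-07). Lyve1, a hyaluronan receptor of lymphatic endothelium and of some macrophages, averaged 7.12 CPM in culture, against 21.4 CPM at 6 weeks and 10.7 CPM at 18 weeks (−1.56 ± 0.26 and −0.61 ± 0.13, adjusted p = 0.000131 and 0.000611). Prox1, a transcription factor that islet endocrine cells also express, stood at 99.6 CPM in culture, against 113 CPM at 6 weeks and 56.1 CPM at 18 weeks, and so fell in the first comparison (−0.16 ± 0.04, adjusted p = 0.0032) and rose in the second (0.80 ± 0.09, adjusted p = 2.07e-06). Pdpn, which encodes podoplanin and is also made by fibroblasts, stood at 1.28 CPM in culture, against 0.720 CPM at 6 weeks and 0.171 CPM at 18 weeks, and rose in both (0.86 ± 0.31, adjusted p = 0.0264, and 2.64 ± 0.45, adjusted p = 8.96e-05). Over the 5 libraries of a group, Mmrn1 had 2 counts in vehicle culture, against 586 at 6 weeks, and Ccl21a, which has near-identical copies in the genome, had 0 in culture, against 247 at 6 weeks.

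Transcripts of blood cells differed between the same groups. The 5 erythroid genes summed to 0.379 to 0.771 CPM in vehicle culture, against 11.1 to 23.2 CPM in vehicle islets of 6 weeks and 29.2 to 141 CPM in those of 18 weeks. Hba-a1, Hba-a2 and Hbb-bt, which encode haemoglobin chains, had 0 counts in every vehicle culture library.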
